A study of Mus musculus with 24 samples.

Results

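The change of wild-type mouse embryonic stem cells over the first 2 days of a serum-free differentiation towards endoderm was described across all genes, from 6 of the 24 RNA-seq libraries of the series. The libraries were chosen by their labels alone: the 3 wild-type libraries of day 0 and the 3 wild-type libraries of day 2. At day 0, unedited cells of the CJ9 line had been kept in ESC medium with LIF on mitotically inactivated mouse embryonic fibroblasts (MEFs). At day 2, the same line had been taken off the fibroblasts and grown for 2 days in Petri dishes in the endoderm medium without serum, before any Activin A was given. Feeders, culture surface and medium changed together, so their effects cannot be told apart, and the sources used here give neither the recipes of the media nor the way day 0 cells were freed from feeders before lysis. Libraries used beside these were of Setd3 knock-out cells at days 0 and 2, which are 1 line of CJ9 made with CRISPR-Cas9 and treated alike, so that genotype and line cannot be told apart, and of wild-type cells at day 3, after 1 day in medium with Activin A. The labels do not say that the 3 libraries of a group came from separate cultures, so p-values measure the spread between these samples, which may be technical.

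Mouse embryonic stem cells held with LIF on feeders resemble the naive epiblast of the blastocyst. LIF signals through a receptor made of Lifr and Il6st to the kinase Jak1 and the factor Stat3, which supports a circuit of factors such as Klf4, Esrrb and Tfcp2l1. When that support ends, cells leave the naive state within days, close down this circuit, and take up a formative programme led by Otx2, Pou3f1 and the de novo DNA methyltransferases before they can respond to signals for germ layers. Feeder fibroblasts secrete LIF and matrix, and some of their RNA is harvested with the stem cells, so a fibroblast gene falls when the feeders are taken away whether or not the stem cells changed.

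Counts of the 6 libraries summed to 18531390 to 22892654, with 20946 to 22665 genes detected and 4.56% to 5.07% of counts in the 10 most abundant genes. Levels are CPM (counts relative to the TMM-scaled library total), which are not per length, so levels are compared between samples and not between genes. After a log2 fold change, ± is its standard error, the fold change divided by the root of edgeR's F value. Adjusted p-values throughout are Benjamini-Hochberg values of edgeR's quasi-likelihood test over 17144 tested genes, with a threshold of 0.05, and "rose" or "fell" is used of genes past it. The common biological coefficient of variation was 0.0906. The targeted gene of the series, Setd3, was at 119.8, 127 and 119 CPM at day 0 and 97.1, 97.2 and 98.2 CPM at day 2 in these wild-type libraries (log2 fold change -0.32 ± 0.06, adjusted p = 5.07e-05).

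Most genes moved. Of 17144 genes, 10936 (63.8%) passed the threshold, 5485 higher at day 2 (32%) and 5451 lower (31.8%), and the median log2 fold change of all genes was 0.0059. A change of at least 2-fold was met by 2155 genes on the higher side (12.6%) and 2618 on the lower side (15.3%). The libraries of the 2 days did not overlap for 11616 genes (67.8%). A count of members past the threshold therefore says little by itself, and the shares above are the background for each gene group below.

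The highest fold changes belonged to genes that were close to silent at day 0. Slc35d3, of the family of nucleotide sugar transporters, was at 0.613, 0.556 and 0.0862 CPM at day 0 and 51.1, 38.9 and 42.3 CPM at day 2 (log2 fold change 6.72 ± 0.33, adjusted p = 1.62e-12). Sez6, a membrane protein of neurons, was at 0.519, 0.728 and 0.129 CPM at day 0 and 35.3, 29.7 and 32.3 CPM at day 2 (log2 fold change 6.13 ± 0.24). Every day 2 library of both genes was far above every day 0 library. The next were Skida1 (5.41, from 0.825 to 35.4 CPM), the leucine-rich repeat protein Lrrn1 (5.00), the matrix protein Spon1 (4.72), Btbd17 (4.66), the cation channel Mcoln3 (4.59), the long non-coding RNA Miat (4.54), the tubulin Tubb4a (4.53, from 2.25 to 51.9 CPM) and the insulin receptor substrate Irs4 (4.46, from 2.15 to 47.3 CPM), all as log2 fold changes. At day 3 the means were 9.42 CPM for Slc35d3, 3.71 for Sez6, 6.61 for Spon1 and 9.69 for Irs4, which is a description, since these genes were chosen for their level at day 2.

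The deepest falls were in genes known from fibroblasts and other cells that make matrix, along with an immediate early gene. Lox, the lysyl oxidase that cross-links collagen, was at 210.3, 319 and 306 CPM at day 0 and 0.528, 0.738 and 0.984 CPM at day 2 (log2 fold change -8.54 ± 0.44). Collagen XII (Col12a1) changed by -8.02 ± 0.55, collagen VIII (Col8a1) by -7.90 ± 0.50 and the matricellular protein Wisp2 by -7.37 ± 0.46. S100a4, a calcium-binding protein common in fibroblasts, had 727 counts over the day 0 libraries and 2 over those of day 2, a ratio of 314.7 with a 95% counting interval of 86.8 to 2603.7. The protease inhibitor Serpina3h (-8.18), the granzyme Gzme (-7.41) and the interleukin receptor Il1rl1 (-7.18) fell as deeply. Also among the 10 lowest was Fosb, an immediate early transcription factor, at 103, 128 and 110.2 CPM at day 0 and 0.72, 0.369 and 0.466 CPM at day 2.

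In plain CPM the largest gains were in Dnmt3b, Pim2, Eef1a1, Ptma and Rian, and the largest losses in Spp1, Fn1, Hsp90aa1, Thbs1 and Zfp42. The de novo DNA methyltransferase Dnmt3b (GRCm38 chromosome 2, 153649450 to 153687730, plus strand) was at 649.5, 507 and 427 CPM at day 0 and 3685, 3533 and 3686 CPM at day 2 (log2 fold change 2.78 ± 0.12, adjusted p = 2.9e-13). The elongation factor Eef1a1 gained 0.16 ± 0.06 on the log2 scale from 9856 to 10988 CPM, its libraries overlapped between the days, and the call was lost with DESeq2, with no filter on low counts, with only the groups compared and without any 1 of day 0 replicates 2 and 3 or day 2 replicate 2. Osteopontin (Spp1) was at 3206, 3276 and 2767 CPM at day 0 and 216, 217 and 202 CPM at day 2 (log2 fold change -3.86 ± 0.33). Fibronectin (Fn1) was at 1177, 2827 and 2542 CPM at day 0 and 272, 202 and 291 CPM at day 2. Thrombospondin (Thbs1) was at 487, 1213 and 1011 CPM at day 0 and 12.7, 11.5 and 11.3 CPM at day 2. In both the day 0 library of replicate 1 was far below the other 2, though still above every day 2 library. The chaperone Hsp90aa1 changed by -0.39 ± 0.08 on the log2 scale.

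The same library held the least feeder RNA of the 3. The 20 fibroblast genes of the feeder score, which are collagens, their cross-linking enzymes and other matrix and fibroblast markers, had sums of 1617, 2799 and 2418 CPM across replicates 1 to 3 at day 0. The day 2 sums were 183, 150.3 and 160.6 CPM. The group means were 2277.9 and 164.6 CPM, a log2 ratio of -3.79. Without the gelatinase Mmp2 the log2 ratio was -4.30, since Mmp2 made up 2.14% of the sum at day 0 and 31.24% at day 2. Of the 20 genes 19 fell, all at least 2-fold, with a median log2 fold change of -3.35. Mmp2 was at 40.7, 57.3 and 48.3 CPM at day 0 and 55.4, 49.2 and 49.8 CPM at day 2 and did not pass (log2 fold change 0.08 ± 0.24, adjusted p = 0.803). In bulk RNA, fewer fibroblasts and less RNA per fibroblast cannot be told apart.

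Markers of other cells that a feeder culture could bring were looked at in the same way. The 39 Hox genes found, which stem cells hardly express and fibroblasts of the body do, summed to 28.5, 38.1 and 37.1 CPM at day 0 and to 3.21, 4.53 and 3.06 CPM at day 2. All 18 that could be tested fell (median log2 fold change -4.35, or -4.26 with the genes at 0 counts set at their bound). Hoxb8 went from 122 counts to 0, at least 35.2-fold lower against a floor of 3 counts over the group. Their part in the day 0 feeder RNA was read from the slopes described next, which passed for 5 of the 18, and for none without any 1 of the knock-out libraries of day 0. Smooth muscle and myofibroblast genes summed to 257, 384 and 370.3 CPM at day 0 and to 148, 142 and 142 CPM at day 2. In that list 6 of 11 fell, among them smooth muscle actins Acta2 (-4.34, from 171 to 8.44 CPM) and Actg2 (-6.50), while Cnn1 (24.3 to 31.4 CPM), Myl9 (39.5 to 42.8 CPM), Tpm2 (56.1 to 42.2 CPM), Mylk and Des did not pass, though Tpm2 passed as lower with DESeq2 and with only the compared groups. Of 13 macrophage markers 8 could be tested and 5 fell. The sum of the list went from 40.5 to 50.8 CPM at day 0 to 7.39 to 9.02 CPM at day 2, of which the lysosomal membrane gene Laptm5 (31.4 to 1.91 CPM) made up most, and the pan-leukocyte marker Ptprc stayed near 0 at both days (0.0286 to 0.0668 CPM). Endothelial markers (27.8 to 39.4 CPM at day 0, 34.2 to 37.8 at day 2) showed 2 of 6 tested genes higher and 3 lower. For skeletal muscle 4 of 10 markers could be tested, with 1 higher and 1 lower, and for cartilage and bone 8 of 10, with 1 higher and 3 lower, where the alkaline phosphatase Alpl (109.9 to 14.7 CPM) is also a stem cell marker.

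**Figure D1:**
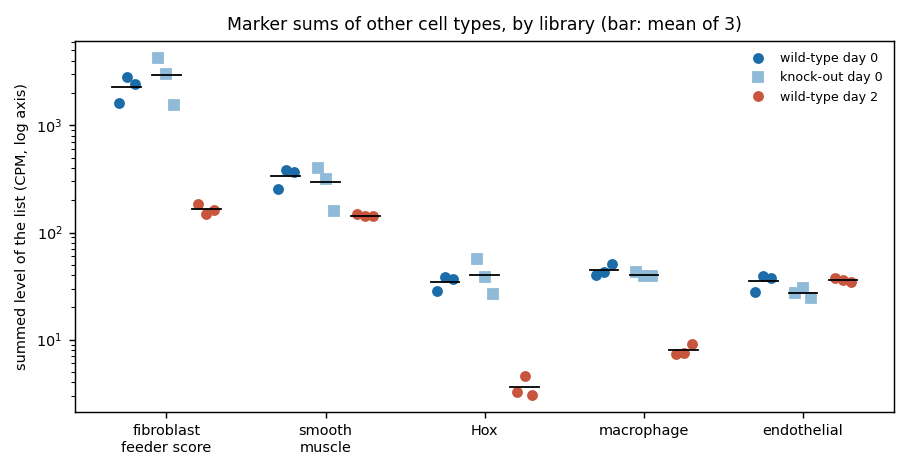
Summed level in CPM (log axis) of the marker genes of 5 other cell types, for wild-type cells at day 0 and day 2 and knock-out cells at day 0, with bars at the mean of 3 libraries. The fibroblast sum lay between 1566 and 4292 CPM in the 6 libraries of day 0 and between 150.3 and 183 CPM in the 3 of day 2. The Hox sum was also lower at day 2. Endothelial sums overlapped between the days, at 24.3 to 39.4 CPM at day 0 and 34.2 to 37.8 CPM at day 2.

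The unequal feeder load of the day 0 libraries was used to mark genes whose level moved with fibroblast RNA, without any day 2 library. Over the 6 libraries of day 0, whose knock-out members had feeder sums of 4292, 2992 and 1566 CPM, each gene was given a slope of its log2 level on the log2 feeder sum, with a term for genotype. A gene read from feeders alone would have a slope near 1 and a gene of stem cells alone a slope near 0, and since CPM are shares of a total the slopes are relative to all other genes. The median slope of 15649 genes was -0.0082. A slope above 0 passed the threshold for 951 genes (6.08%), called feeder-tracking below, and a slope below 0 for 205 (1.31%). The score genes themselves, whose slopes are a description because they make the score, had a median slope of 1.01, and 14 of the 20 passed. Outside the score, the highest slopes among genes with a day 0 mean of at least 50 CPM were those of the macrophage growth factor Csf1 (1.34 ± 0.09), Col12a1 (1.26 ± 0.15), the matrix-associated protein Aebp1 (1.23 ± 0.08), tenascin C (Tnc, 1.19 ± 0.09) and the metalloproteinase inhibitor Timp2 (1.18 ± 0.06). By day 2 their log2 fold changes were -4.42, -8.02, -3.78, -6.08 and -3.13.

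The call rests on few libraries. In place of the 951, fits that left out 1 library each called 399 without knock-out replicate 1, 641 without knock-out replicate 2, 217 without knock-out replicate 3, 1610 without wild-type replicate 1, 707 without wild-type replicate 2 and 856 without wild-type replicate 3, which need not be the same genes. Without the genotype term 364 were called. A gene that is not called may still hold feeder RNA. Nor need a called gene be read from feeders, since stem cell expression that varied with the feeder sum would also give a slope. Of the genes named below for a slope that passed, Stat3, Msx2, Zic1, Jak1, Il6st, Osmr, Snai2, Zeb1, Tpm4 and Ctsd lost the call without knock-out replicate 1 or 2 as well as without replicate 3, and Ccnd1, Cdh2, Ctgf, Ctsb, Flna, Id3, Irx3, Itga5, Itgb1, Lif and Col12a1 without replicate 3. Nid1 lost it without knock-out replicate 1. Without the genotype term the call was also lost for Cd44, Cnn1, Grem1, Myl9, Vim and Zyx.

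Genes that fell could be divided only in part. Of the 2618 genes lower by at least 2-fold, 2570 had a slope. Among these, 484 (18.83%) were feeder-tracking, against 6.08% of all genes, and 1034 (40.23%) had a slope whose upper 95% bound was below 0.5, a class set after the data were seen, against 70.8% of all genes. There were 11 genes in both classes and 1063 in neither. With slopes below 0.25, the deepest falls were those of Fosb, the GABA-making enzyme Gad1 (-6.97), Fos, Zscan4d, the long non-coding RNA Halr1 (-6.62), Zscan4a, Fgf17, Klf4, the fusion peptide Mymx (-6.42) and Tbx3. Among the 815 genes lower by at least 8-fold, of which 808 had a slope, 211 (26.11%) were feeder-tracking. Of the 2155 genes higher by at least 2-fold, 1570 had a slope, 53 of them feeder-tracking (3.38%) and 992 with a bound below 0.5 (63.18%). Leaving out single day 0 libraries moved the 484 between 140 (without knock-out replicate 3) and 655 (without wild-type replicate 1), with 247 without knock-out replicate 1, and the 53 between 5 and 103. The 1034 ranged from 699 to 1050, and the 992 from 534 (without knock-out replicate 3) to 1084.

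**Figure D2:**
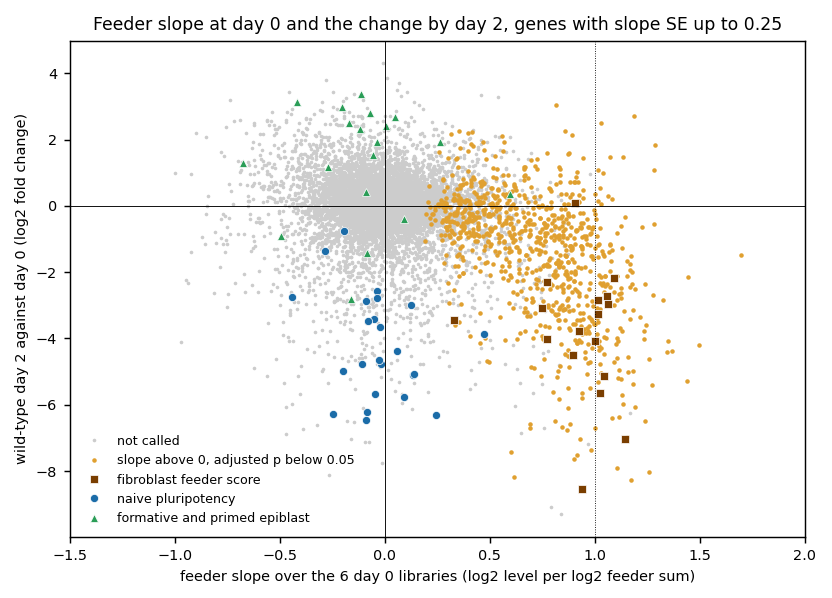
Feeder slope over the 6 libraries of day 0 (x axis, log2 level per log2 feeder sum) against the log2 fold change of wild-type day 2 against day 0 (y axis) for the 12104 genes with a slope SE up to 0.25, of which 890 were called feeder-tracking (orange). Score genes (squares) lay near a slope of 1 and below 0 on the y axis, apart from Fap in slope and Mmp2 in change, and naive pluripotency genes (circles) lay as low at slopes around 0, while formative genes (triangles) lay mostly above 0.

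Of the 951 feeder-tracking genes, 641 fell, 118 rose and 192 did not pass, with a median log2 fold change of -1.065. Their summed mean level went from 39657 to 26415 CPM. Signals that fibroblasts send were among those that fell: of 21 tested genes of that list 18 fell and 3 rose (median -3.26), and 11 were feeder-tracking. Interleukin 6 (Il6) was at 9.25, 11.98 and 11.5 CPM at day 0 and 0.144, 0.105 and 0.0518 CPM at day 2. The BMP antagonist Grem1, with a slope of 0.87 ± 0.08, was at 331, 457 and 391 CPM at day 0 and 9.88, 7.96 and 8.08 CPM at day 2. The EGF family ligand Ereg (-6.48), Csf1, Igfbp7 (-5.82) and Tgfb3 (-4.18) fell with slopes of 1.24, 1.34, 0.83 and 1.10. Lif itself was at 21.9, 27.9 and 25.5 CPM at day 0 and 8.44, 7.69 and 8.39 CPM at day 2 with a slope of 0.69 ± 0.10, and the days did not overlap. Of the 11 feeder-tracking genes 6 were called without the genotype term.

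In the same list Bmp4 and the lymphangiogenic factor Vegfc fell with slopes near 0. Bmp4, a ligand that supports the naive state in serum-free culture, was at 35.6, 39.7 and 45.1 CPM at day 0 and 3.26, 4.00 and 3.06 CPM at day 2 (log2 fold change -3.54 ± 0.19, slope -0.03 ± 0.11). Vegfc changed by -3.26 ± 0.21 with a slope of 0.12 ± 0.10. The genes that rose were the insulin-like growth factor binding protein Igfbp5 (1.82 ± 0.31), the ligand of Kit, Kitl (1.03 ± 0.23), and the chemokine Cxcl12 (0.93 ± 0.29).

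Genes of the mesenchymal state had slopes like those of fibroblast genes. Of 13 tested, 11 fell, none rose and 12 were feeder-tracking, against 6 without knock-out replicate 3 and 5 without the genotype term. Vimentin (Vim), the intermediate filament of mesenchymal cells, was at 718, 913 and 792 CPM at day 0 and 81.2, 91.3 and 70.4 CPM at day 2 with a slope of 0.68 ± 0.08. The adhesion receptor Cd44 (-3.52), the cadherin Cdh11 (-4.11) and the repressor Snai2 (-3.86) had slopes of 1.02, 0.94 and 0.94. The repressor of E-cadherin Zeb1 fell to 1.97, 1.53 and 2.02 CPM from 30.5, 34.9 and 31.9 CPM with a slope of 0.45 ± 0.09. Zeb2 (21.3 to 16.4 CPM, slope 0.84) and N-cadherin (Cdh2, 27.03 to 34.9 CPM, slope 0.60) were feeder-tracking at day 0 and did not pass by day 2.

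Other feeder-tracking genes were as high or higher once the feeder sum had fallen. Zyxin (Zyx), of focal adhesions, had a slope of 0.90 ± 0.11 and was at 29.02, 62.3 and 50.02 CPM at day 0 and 91.4, 63.3 and 77.5 CPM at day 2, with a rise that was lost without day 0 or day 2 replicate 1. Filamin A (Flna), an actin cross-linker, had a slope of 0.28 ± 0.06 and was at 658, 823 and 764 CPM at day 0 and 1312, 1249 and 1276 CPM at day 2. The tropomyosin Tpm4 changed by 0.64 ± 0.09 with a slope of 0.36. Myl9 and Cnn1, with slopes of 0.93 and 0.84, did not pass, and Cnn1 was at 17.9, 29.2 and 25.7 CPM at day 0 and 33.7, 29.9 and 30.5 CPM at day 2. In all, 11 of 20 genes of the list of actins and targets of the factor SRF were higher at equal feeder level, an extrapolation described next, against 4 in the plain comparison (2 without replicate 1 of either day, and with only the compared groups). The immediate early genes Fos and Egr1, which SRF also drives, fell. Fos was at 133, 127 and 138 CPM at day 0 and 1.58, 1.11 and 0.622 CPM at day 2. Egr1 was at 213, 261 and 323 CPM at day 0 and 15.3, 7.96 and 8.13 CPM at day 2.

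As an alternative, day 2 was compared with day 0 after the day 0 level of each gene was carried along its slope to the feeder level of day 2. This reading reaches far below the feeder levels measured at day 0, and the median SE rose from 0.144 to 0.533. It follows a straight line on the log scale. A gene that feeders and stem cells both express would level off at its stem cell share, so the line can pass below that level. Such genes can then read too high at day 2. For a gene with a slope below 0 the carried day 0 level is raised, so it reads lower at day 2. At equal feeder level 3117 genes passed, 1594 higher (9.3%) and 1523 lower (8.88%). Without single day 0 libraries the count ranged from 985 (without knock-out replicate 3) to 3168, with 1462 without knock-out replicate 1. Of the lists above, 2 of 18 Hox genes, 1 of 13 mesenchymal genes and 5 of 21 fibroblast signals were still lower. Of the 10 genes with the highest fold changes 5 did not pass there, with adjusted p-values of 0.208 for Slc35d3, 0.283 for Btbd17, 0.84 for Mcoln3, 0.214 for Miat and 0.33 for Irs4, and the log2 fold change of Mcoln3 was 0.79. The genes named for the deepest falls, from Lox to Fosb, passed as lower, as did Fos and Bmp4. For Lox, a score gene, and Col12a1 the log2 fold changes there were -4.98 and -3.18, at slopes of 0.94 and 1.26. Levels were carried only as far as the feeder sum fell (log2 ratio of wild-type group means -3.79). Mmp2 made up 31.24% of that sum at day 2. A feeder gene that fell further than the sum can therefore pass as lower. Whether Lox and Col12a1 fell beyond the loss of feeder RNA was not tested. Of the 10 named for gains or losses in CPM, Fn1 changed direction without passing (log2 fold change 0.14, adjusted p = 0.937), as did Eef1a1 (-0.28, adjusted p = 0.412). Thbs1, Spp1, Ptma and Pim2 did not pass either (adjusted p = 0.1, 0.197, 0.165 and 0.0523).

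The naive pluripotency genes fell as a whole, with slopes near 0. All 24 tested members fell, 23 of them at least 2-fold, with a median log2 fold change of -4.51 against 0.0059 for all genes. None was feeder-tracking (1 was without wild-type day 0 replicate 1), the median slope was -0.04, and 23 had an upper bound below 0.5. The other was Spp1, with a slope of 0.47 ± 0.16. Of the 24, 21 were lower at equal feeder level and none higher. Summed over the list the level went from between 7951 and 8361 CPM to between 512 and 599 CPM. Of these sums Spp1 alone made up 3206, 3276 and 2767 CPM at day 0 and 216, 217 and 202 CPM at day 2. It did not pass at equal feeder level (adjusted p = 0.197).

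Klf4, a Krüppel-like factor induced by LIF (chromosome 4, 55527143 to 55532466, minus strand), fell the most. It was at 187, 219 and 230.1 CPM at day 0 and 2.54, 2.58 and 2.07 CPM at day 2 (log2 fold change -6.46 ± 0.13, adjusted p = 1.73e-21, slope -0.09 ± 0.09). The related factor Klf2, which acts beside it, was at 342, 421 and 449.6 CPM at day 0 and 11.5, 15.5 and 17.5 CPM at day 2. Klf5 was at 167, 189 and 212 CPM at day 0 and 13.2, 15.1 and 16.9 CPM at day 2. The 3 libraries of either day were close together for Klf4, whereas for Klf2 the day 2 library of replicate 1 was the lowest.

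The nuclear receptors and grainyhead-like factor of the circuit fell to a few CPM. Esrrb was at 569, 644 and 667 CPM at day 0 and 7.24, 13.1 and 16.5 CPM at day 2 (log2 fold change -5.68 ± 0.23), again lowest in replicate 1 of day 2. Nr5a2, which can drive Pou5f1, was at 96.3, 112 and 115 CPM at day 0 and 1.87, 4.06 and 3.78 CPM at day 2. Tfcp2l1, the grainyhead-like factor, was at 345, 495 and 516 CPM at day 0 and 6.33, 8.70 and 9.90 CPM at day 2. In each the day 2 library of replicate 1 was the lowest and all 3 were far below day 0. Nr0b1 changed by -4.38 ± 0.22.

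The other factors fell less evenly. Tbx3, a T-box factor downstream of LIF, changed by -6.31 ± 0.27, Gbx2, a homeobox factor, by -5.11 ± 0.20, and Prdm14, which holds down DNA methylation and FGF signalling, by -4.99 ± 0.37 from 13.6 to 0.426 CPM. Nanog was at 442, 452 and 439 CPM at day 0 and 40.9, 41.8 and 36.7 CPM at day 2 (log2 fold change -3.48 ± 0.10), with both days close together. Zfp42, known as Rex1 and used as the reporter of the naive state, was at 825, 772 and 763 CPM at day 0 and 21.3, 34.2 and 39.2 CPM at day 2. The imprint guardian Zfp57 (-3.0), Sox15 (-2.88) and Dppa3 (-1.36, from 15.2 to 5.93 CPM) fell less, and the ligand Fgf4, which starts the exit through ERK, fell least (137, 115 and 123 CPM at day 0 and 65.5, 74.1 and 81.9 CPM at day 2, log2 fold change -0.76 ± 0.18).

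Effectors of the state went down with the factors. The adhesion molecule Jam2 was at 198, 186 and 185 CPM at day 0 and 2.21, 2.90 and 2.54 CPM at day 2 (log2 fold change -6.22 ± 0.16), and Tcl1, a partner of the kinase AKT, changed by -6.29 ± 0.24. The threonine dehydrogenase Tdh, which feeds one-carbon metabolism in mouse stem cells, was at 282, 279 and 275 CPM at day 0 and 31.3, 48.3 and 42.3 CPM at day 2, and the mannosidase Manba changed by -2.58 ± 0.11. Fbxo15 (-3.42) and Pecam1 (-2.74) followed.

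**Figure D3:**
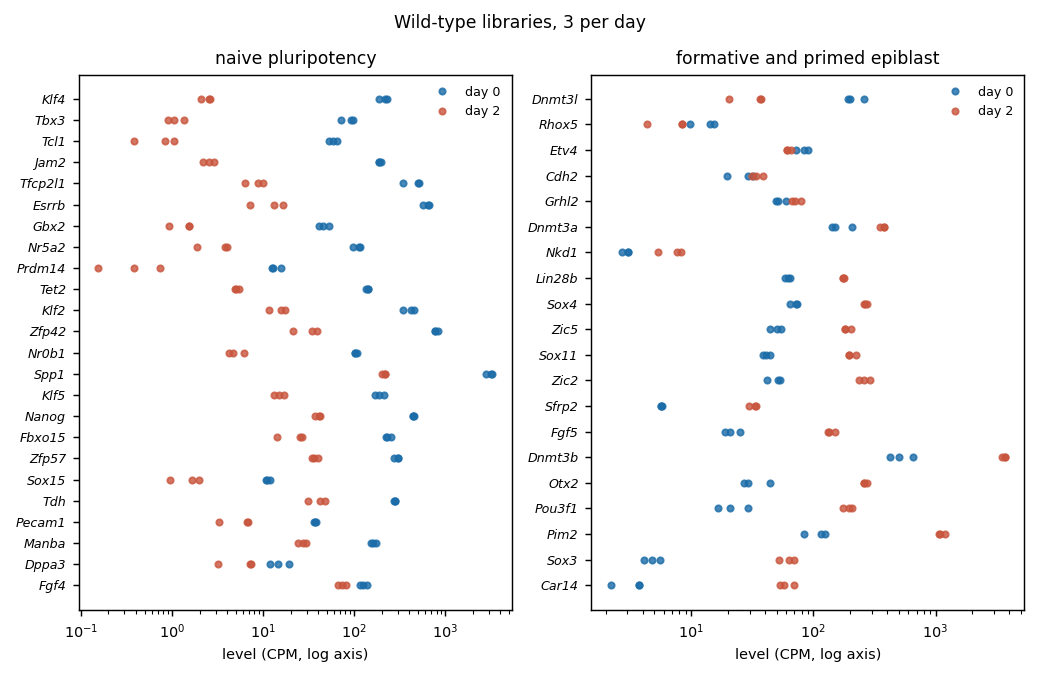
Level in CPM (log axis) of 24 naive pluripotency genes (left) and 20 formative and primed genes (right) in the 3 wild-type libraries at day 0 (blue) and at day 2 (red), ordered by log2 fold change. The days did not overlap for any naive gene, and of the formative genes drawn Dnmt3l, Rhox5 and Etv4 were lower at day 2.

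Genes of pluripotency in general, which naive and primed cells share, did not fall together: 9 of 16 tested fell, 4 rose and 3 did not pass (median -0.46). Pou5f1, the central factor of pluripotency, was at 484, 429 and 409 CPM at day 0 and 304, 328 and 322 CPM at day 2 (log2 fold change -0.47 ± 0.13, adjusted p = 0.0038). Sall4 (0.04), Utf1 (0.16) and Trim71 (281 to 281 CPM) did not pass. The RNA-binding protein Lin28a was at 498, 476 and 465 CPM at day 0 and 944, 897 and 834 CPM at day 2 (log2 fold change 0.89 ± 0.05). The members that fell most were Tdgf1 and Dppa5a. Tdgf1, the Nodal co-receptor, was at 692, 579.9 and 576 CPM at day 0 and 38.9, 39.9 and 30.5 CPM at day 2. Dppa5a, an RNA-binding protein of early cells, was at 931, 731 and 709 CPM at day 0 and 79.8, 139 and 130.2 CPM at day 2. Dppa2 (-1.14) and Dppa4 (-0.60), which act at bivalent promoters, fell less. None of the 16 was feeder-tracking.

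Most transcripts of the rare 2-cell-like state fell. Of 22 genes found, 18 could be tested and 17 fell, 16 at least 2-fold, with a median log2 fold change of -5.34, the same with the gene at 0 counts set at its bound. Zscan4d, a telomere-associated zinc finger gene, was at 23.6, 17.5 and 14.7 CPM at day 0 and 0.144, 0.105 and 0.259 CPM at day 2. Zscan4a was at 23.3, 19.6 and 15.2 CPM at day 0 and 0.24, 0.369 and 0 CPM at day 2. The list summed to 475, 425 and 421 CPM at day 0 and to 209.7, 223 and 206 CPM at day 2, most of it the translation factor Eif1a (339 to 208 CPM), which fell by less than 2-fold. Gm5662 had 670 counts at day 0 and 0 at day 2, at least 193.4-fold lower. Zscan4c (-5.90), Tcstv3 (-5.20) and Zfp352 (-5.30) fell too, and Arg2 (1.66 to 1.52 CPM) did not pass. The Zscan4 and Usp17l genes are families of close copies whose counts cannot be assigned with certainty, since the sources do not say how reads that map to several places were handled. None was feeder-tracking, and 12 were lower at equal feeder level.

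The formative and primed genes moved the other way. Of 21, 16 rose, 15 of them at least 2-fold, 4 fell and 1 did not pass (median 1.93, against 12.6% of all genes that rose at least 2-fold). Otx2, the homeobox factor that opens the formative state (chromosome 14, 48657677 to 48673819, minus strand), was at 44.2, 29.4 and 27.1 CPM at day 0 and 261, 259 and 272 CPM at day 2 (log2 fold change 2.98 ± 0.15, adjusted p = 2.11e-12). Its partner in enhancer binding, the POU factor Pou3f1, was at 28.98, 20.7 and 16.6 CPM at day 0 and 196, 176 and 208 CPM at day 2. Fgf5, the classic ligand of the primed epiblast, was at 20.7, 24.9 and 18.8 CPM at day 0 and 150.2, 131 and 133 CPM at day 2 (log2 fold change 2.68 ± 0.08). In all 3 genes every day 2 library was above every day 0 library.

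SOX and ZIC factors of the epiblast were among those that rose. Sox3 (3.67 ± 0.20, from 4.82 to 61.6 CPM), Sox11 (2.31 ± 0.09) and Sox4 (1.92 ± 0.10) rose. Zic2 was at 53.7, 51.2 and 41.8 CPM at day 0 and 289.6, 234 and 258 CPM at day 2 and Zic5 changed by 1.93 ± 0.07. The carbonic anhydrase Car14 changed by 4.23 ± 0.17, the serine/threonine kinase Pim2 by 3.36 ± 0.23 and the Wnt antagonist Sfrp2 by 2.50 ± 0.14. Lin28b (1.52) and the E-cadherin regulator Grhl2 (0.42) rose. At equal feeder level 8 were higher and 3 lower, and Pim2 was at an adjusted p of 0.0523 there.

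Receptor, kinase and targets of LIF were read next. Of 22 tested genes 16 fell, 12 of them at least 2-fold, 2 rose and 4 did not pass (median -1.58). The receptor chain Lifr was at 82.1, 89.3 and 96.2 CPM at day 0 and 23.03, 26.9 and 30.1 CPM at day 2. Its partner Il6st was at 143, 171 and 164 CPM at day 0 and 42.9, 46.2 and 45.9 CPM at day 2. Stat3, the factor that carries the signal, was at 121, 158 and 151 CPM at day 0 and 28.5, 26.03 and 30.8 CPM at day 2 (log2 fold change -2.33 ± 0.11). Among the kinases Jak1 changed by -0.95 ± 0.12, and Jak2 (-0.06) and Tyk2 (-0.16) did not pass. Il6st, Stat3 and Jak1 had slopes of 0.34, 0.30 and 0.36 that passed, while Lifr had -0.06 ± 0.08. At equal feeder level Jak1 changed direction, so its fall did not hold there. That extrapolation does not give the part of each fall that was feeder RNA. The oncostatin receptor Osmr (-5.31), the deepest fall of the list, had a slope of 1.01 and did not pass at equal feeder level (adjusted p = 0.193).

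Direct targets fell with slopes that did not pass, apart from Junb. Socs3, the feedback inhibitor that Stat3 induces, was at 108, 91.6 and 118 CPM at day 0 and 3.79, 5.22 and 4.20 CPM at day 2 (log2 fold change -4.59 ± 0.17, slope -0.21 ± 0.11). Bcl3 changed by -4.39 ± 0.19, Pim1 by -3.50 ± 0.12 and Junb by -2.97 ± 0.15. Socs1 (-0.96) and Gadd45g (-0.70) fell less and Cish (0.921 to 1.02 CPM) did not pass. The phosphatases Ptpn11 (0.43) and Ptpn6 (0.66), which damp the pathway, rose. Of the 22, 7 were lower and 2 higher at equal feeder level.

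FGF and ERK genes showed a fall of immediate early genes beside mixed feedback genes. Of 23, 15 fell and 6 rose (median -0.66). Fos and Egr1 changed by -6.89 ± 0.31 and -4.66 ± 0.22 with slopes of -0.47 and 0.06, and Myc by -2.29 ± 0.12, while Ier2 was at 164, 158 and 165 CPM at day 0 and 79.1, 85.4 and 88.9 CPM at day 2. Among the receptors Fgfr1 rose from 99.9, 129 and 129 CPM to 262, 227 and 264 CPM and Fgfr2 did not pass (0.16). The feedback phosphatase Dusp4 rose from 25.1, 34.2 and 33.1 CPM to 196, 198 and 216 CPM (log2 fold change 2.72 ± 0.12) and Dusp6 by 0.33, a call lost without day 0 replicate 1, whereas Spry4 (-1.10), Spry2 (-0.66), Etv5 (-0.64) and Etv4 (-0.41) fell and Spry1 (0.50) rose. The ligand Fgf17, which is not in the list, was at 55.1, 52.5 and 52.9 CPM at day 0 and 0.384, 0.58 and 0.777 CPM at day 2 at a slope of -0.09 ± 0.07.

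In the Nodal pathway the ligand, its co-receptor and the feedback genes fell. Nodal was at 73.2, 62.5 and 60.6 CPM at day 0 and 14.5, 14.1 and 7.15 CPM at day 2 (log2 fold change -2.45 ± 0.16). Its inhibitor and target Lefty1 was at 90.2, 83.5 and 73.4 CPM at day 0 and 7.29, 6.22 and 2.23 CPM at day 2. Lefty2 was at 146, 147 and 145 CPM at day 0 and 3.12, 4.00 and 1.40 CPM at day 2. Replicate 3 was the lowest day 2 library for all 3, and no library of the days overlapped. The intracellular inhibitor Smad7 changed by -4.13 ± 0.15 and Tdgf1 by -4.08 ± 0.20. Receptors and effectors moved otherwise: Acvr2b (1.16), Acvr1b (0.52), Smad3 (0.40) and the cofactor Foxh1 (34.02, 33.4 and 31.3 CPM at day 0 and 105, 97.7 and 97.6 CPM at day 2) rose, and Smad2 (0.11) and Acvr2a (0.15) did not pass. In all 8 of 18 fell and 6 rose, and at equal feeder level 8 were lower and 3 higher.

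Over the next day, in Activin A, many of these genes were higher than at day 2, in a comparison that shares the day 2 libraries with the one above. The day 3 against day 2 log2 fold changes were 3.63 ± 0.16 for Nodal, 4.22 ± 0.33 for Lefty1, 4.18 ± 0.34 for Lefty2, 3.49 ± 0.15 for Smad7 and 3.25 ± 0.10 for Nanog, with mean levels of 148, 98.3, 51.6, 52.9 and 379 CPM. In the list 11 of 18 were higher and 1 lower, against 21.4% of all genes higher and 21.1% lower. Klf4 (0.02) and Tet2 (-0.05) did not pass in that step, and Esrrb changed by a further -2.57 ± 0.32. Fgf5 was at 393 CPM at day 3 and Dnmt3b at 1879 CPM.

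Of 17 BMP genes 10 fell and 5 rose (3 without day 0 replicate 1 or day 2 replicate 2), but at equal feeder level 2 were lower and 3 higher. The list summed to 432, 492 and 463 CPM at day 0 and to 454, 475 and 441 CPM at day 2, so that the days overlapped. Beside Bmp4, the inhibitor of differentiation Id1, a BMP target, was at 27.6, 31.97 and 32.4 CPM at day 0 and 10.6, 15.1 and 11.6 CPM at day 2, and Id2 changed by -0.48 ± 0.13 and Smad6 by -1.5 ± 0.19. Id3 did not pass (68.9 to 75.1 CPM) and had a slope of 0.68 ± 0.09. The receptor Bmpr1a (0.72) and the effectors Smad1 (0.51) and Smad5 (0.40) rose. The homeobox gene Msx2 fell (-4.35) with a slope of 0.87.

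Canonical Wnt targets went both ways. Axin2, the general feedback target, was at 30.3, 48.8 and 48.5 CPM at day 0 and 20.9, 16.02 and 14.4 CPM at day 2 (log2 fold change -1.31 ± 0.18), and Sp5, Notum and Cdx1 changed by -3.64 ± 0.45, -3.37 ± 0.35 and -6.87 ± 0.50. Lef1 was at 17.7, 24.2 and 18.5 CPM at day 0 and 64.8, 49.96 and 59.2 CPM at day 2, and Tcf7 (0.72), Tcf7l1 (0.88) and Nkd1 (1.28) rose. In all 8 of 16 rose and 7 fell. Cyclin D1 (Ccnd1) fell from 228 to 109 CPM with a slope of 0.44 ± 0.06.

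Notch genes showed no common direction, with 7 of 19 higher and 6 lower. The target Hes1 fell from 45.9, 63.6 and 52.1 CPM to 13.4, 14.6 and 11.2 CPM, and the DNA-binding partner Rbpj from 299, 273 and 283 CPM to 110.3, 113 and 119.8 CPM. The receptor Notch2 (1.11), the ligand Dll3 (1.14) and the neural regulator Hes6 (1.89 ± 0.12) rose. Targets of the YAP and TEAD factors that fibroblasts express highly fell: Ctgf (-2.72, slope 0.92), Cyr61 (-2.62, slope 1.12) and Ankrd1, which went from 484 counts to 1, a ratio of 419.1 with a 95% counting interval of 74.9 to 16586. Tead2, the TEAD member of early embryos, was at 103, 105 and 91.2 CPM at day 0 and 335, 301 and 295 CPM at day 2, and Yap1 (0.36) rose. The list had 5 of 17 higher and 9 lower, and 7 higher and 2 lower at equal feeder level. Without day 0 replicate 1 the higher count was 3.

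Enzymes of DNA methylation and of its removal went both ways. Beside Dnmt3b, the other de novo enzyme Dnmt3a was at 206, 149.8 and 142 CPM at day 0 and 352, 376 and 382 CPM at day 2 (log2 fold change 1.16 ± 0.11), and the maintenance enzyme Dnmt1 changed by 0.30 ± 0.06. Their cofactor Dnmt3l fell from 262, 199.6 and 192 CPM to 20.5, 36.5 and 36.99 CPM. Of the enzymes that oxidise methylcytosine, Tet2 was at 142, 135 and 142 CPM at day 0 and 4.94, 5.38 and 5.03 CPM at day 2. Tet1 was at 585, 627 and 705 CPM at day 0 and 239.8, 214 and 274 CPM at day 2. Tet3, in contrast, rose from 10.1, 14.1 and 13.2 CPM to 62.9, 46.2 and 54.8 CPM. The glycosylase Tdg (0.80) rose and Uhrf1 (0.08) did not pass. In the list 5 of 15 rose and 6 fell.

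Imprinted genes went both ways. Of 24 tested, 12 rose and 9 fell. The non-coding RNAs of the Dlk1-Dio3 domain rose. Meg3 was at 317, 394 and 362 CPM at day 0 and 1081, 845 and 977 CPM at day 2, and Rian was at 452, 528 and 497 CPM at day 0 and 1292, 1139.6 and 1258 CPM at day 2. Mirg changed by 1.51 ± 0.11 and Rtl1 by 1.41 ± 0.13. Peg3 (162 to 330.5 CPM) and its neighbour Usp29 (1.07) rose, as did Mest (1.02). The growth restraints Phlda2 (-2.83) and Cdkn1c (-1.65), which lie close together, fell, and H19 changed by -1.36 ± 0.40 at a slope of 0.72 ± 0.46 that did not pass. Of 27 Polycomb genes 8 rose and 8 fell. The embryonic cofactor Epop was at 365, 363 and 331 CPM at day 0 and 79.9, 78.7 and 83.8 CPM at day 2, and the chromobox gene Cbx2 rose from 29.97, 28.6 and 27.9 CPM to 91.3, 90.96 and 92.9 CPM. Eed (-1.45), a core subunit, fell, and the methyltransferase Ezh2 (-0.09) did not pass.

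In the lists of several lineages more genes fell than rose, a balance that for most did not hold at equal feeder level. Of 12 primitive streak genes 5 fell and 1 rose: Mixl1 was at 7.69, 11.3 and 8.45 CPM at day 0 and 4.13, 3.0 and 1.97 CPM at day 2, Wnt3 changed by -2.33 ± 0.21, Eomes (22.8 to 15.9 CPM) did not pass though it did with DESeq2 or without replicate 1 of either day, and Foxa2 rose by 1.07 to 10.2, 8.17 and 3.58 CPM, with replicate 3 within the range of day 0 and the call lost without day 0 or day 2 replicate 1. Of 18 extraembryonic endoderm genes 10 fell and 1 rose, and the deepest were Hnf4a (-4.61, from 2.64 to 0.105 CPM) and Thbd (-4.24, slope 1.02). The trophoblast and germ cell factor Tfap2c fell from 43.8, 61.1 and 64.99 CPM to 1.87, 2.85 and 2.33 CPM, with 6 of 11 genes of its list lower and 2 higher. Germline genes, many of them kept silent by DNA methylation, fell in 13 of 23 cases and rose in 2, with Hormad1 at 16.6, 12.8 and 8.75 CPM at day 0 and 1.82, 0.896 and 1.40 CPM at day 2 and Tdrd1 higher (1.79). Mesoderm (5 of 9 lower, or 3 without day 2 replicate 1, and 1 higher) and surface or neural crest genes (5 of 8 lower, 1 higher) followed. Feeder-tracking genes numbered 7 of 17 with a slope in extraembryonic endoderm, 1 of 12 in primitive streak, 2 of 8 in mesoderm and 2 of 7 in surface and neural crest, with median slopes of 0.36, 0.47, 0.15 and 0.74. Extraembryonic endoderm at equal feeder level had 1 lower and 5 higher, and there trophoblast had 3 lower and germline 10 lower, and edgeR called no gene of the other 3 lists, where an unadjusted p under 0.05 was met by 0 primitive streak, 0 mesoderm and 2 surface genes; no other tool was run on that reading. The surface list summed to 68.7, 162 and 143 CPM at day 0 and to 166, 177 and 139.5 CPM at day 2.

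Neuroectoderm genes had 9 of 14 tested members higher and 4 lower. The RNA-binding protein of neural progenitors Msi1 was at 10.00, 15.4 and 13.2 CPM at day 0 and 85.9, 56.5 and 74.6 CPM at day 2 (log2 fold change 2.49 ± 0.20) and nestin (Nes) at 51.01, 74.01 and 51.9 CPM at day 0 and 168, 159 and 149.6 CPM at day 2. Six3, a forebrain factor, had 1 count over the day 0 libraries and 92 over those of day 2. Pax6 (4.86 to 3.74 CPM) did not pass, and Zic1 (-3.55) and Irx3 (-1.66) fell with slopes of 1.00 and 1.08. Of 18 retinoic acid genes 4 rose, led by the binding protein Crabp2 (8.26, 6.16 and 6.99 CPM at day 0 and 79.5, 80.2 and 70.4 CPM at day 2), and 11 fell.

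Cholesterol synthesis rose nearly step by step. Of 24 tested genes of synthesis and uptake, 22 rose, 12 at least 2-fold (12.6% of all genes), Ebp fell and Insig1 did not pass (median log2 fold change 0.99). In the mevalonate branch, the synthase Hmgcs1 was at 189, 187 and 184 CPM at day 0 and 535, 514 and 468 CPM at day 2. The kinases Mvk (1.14) and Pmvk (1.26) followed. In the sterol branch, squalene epoxidase Sqle was at 119, 119.8 and 113 CPM at day 0 and 359, 339 and 338 CPM at day 2 (log2 fold change 1.56 ± 0.06), and Msmo1 (1.45), Lss (1.36) and Tm7sf2 (2.28) rose. The days did not overlap in any of these.

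A sterol carrier and a control gene rose with the enzymes. The carrier, Stard4, changed by 1.65 ± 0.10 and the master factor Srebf2 by 0.64 ± 0.07. Ebp, a sterol isomerase in the midst of the pathway, went from 33.5, 33.3 and 31.5 CPM to 12.3, 13.8 and 10.1 CPM. None of the list was feeder-tracking and 4 had slopes below 0 that passed. At equal feeder level 5 were higher and 2 lower, so for most of these genes the call did not hold there. Counts of Fdps (1.78 to 5.66 CPM) are uncertain, since close copies of the gene exist.

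Fatty acid synthesis rose as well, in 12 of 13 genes with none lower (median 0.73). The synthase Fasn was at 492, 648 and 635 CPM at day 0 and 1236, 979 and 1196 CPM at day 2. The desaturase Fads2 was at 61.9, 71.4 and 56.8 CPM at day 0 and 360.0, 358 and 369 CPM at day 2, and Scd1 was at 74.3, 87.2 and 87.8 CPM at day 0 and 303, 283 and 298 CPM at day 2. The days did not overlap for any of the 3. The carboxylase Acaca (0.73), the citrate lyase Acly (0.59) and the regulator Srebf1 (0.63) rose less, and Elovl1 did not pass. The call held at equal feeder level for 4 of the 13. Of the sterol exporters, Abcg1 rose (11.6 to 43.2 CPM) and Abca1 fell (20.5 to 4.03 CPM).

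Genes of the amino acid response fell. This response is run by the factor ATF4, which binds DNA elements that hold the letters TGATGNAA and switches on the making and import of amino acids. Of 19 tested genes 16 fell, 9 at least 2-fold, and 1 rose (median -0.95, none feeder-tracking, 13 lower and 1 higher at equal feeder level). The median slope was -0.152, and slopes below 0 by themselves lower the reading at equal feeder level. Asparagine synthetase (Asns) was at 325, 332 and 325 CPM at day 0 and 67.4, 76.2 and 71.2 CPM at day 2 (log2 fold change -2.19 ± 0.07, adjusted p = 1.12e-18). Atf4 itself was at 213, 212 and 210.2 CPM at day 0 and 144, 122 and 123 CPM at day 2. The related factor Atf3 was at 17.98, 28.8 and 22.9 CPM at day 0 and 2.64, 2.11 and 1.40 CPM at day 2. In these 3 genes the days did not overlap. The pseudokinase Trib3, which feeds back on ATF4, was at 33.8, 29.5 and 32.6 CPM at day 0 and 9.84, 12.6 and 11.5 CPM at day 2. Chac1, which degrades glutathione, changed by -1.84 ± 0.28, and in the serine branch Psat1 (-1.07), Psph (-0.88) and Shmt2 (-1.39) fell while Phgdh (0.01) did not pass. The gene that rose was Slc7a11, the cystine importer, at 8.54, 6.72 and 8.32 CPM at day 0 and 24.4, 29.4 and 27.2 CPM at day 2 (log2 fold change 1.78 ± 0.14).

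Promoters of this group are shown because a larger share of its genes than of tested genes at large had a promoter with these letters. TGATGNAA was searched on both strands from 250 bases before to 50 bases after the annotated start in RefSeq sequences of GRCm38.p6. A gene was counted if any of its annotated promoters held the letters. This was so for 6 of 18 genes of the list (33.33%) and for 2.84% of 11911 tested genes. The list gathers genes of a response that ATF4 runs through such letters, so its larger share is a description and no test. The 6 genes were Asns, Atf3, Chac1, Slc7a11, Trib3 and Vldlr, of which 5 fell and Slc7a11 rose. Counted alike, TCACNCCAC, letters of a sterol response element, was found for 1 of 16 cholesterol genes (Hmgcs1), 0 of 10 fatty acid genes and 1.39% of all. TTCCNGGAA, letters of a STAT site, was found for 1 of 21 genes of the LIF list (Cish) and 1.49% of all. The searches and the promoters shown were chosen after the expression values and matches were seen, a match is a description of letters and not a binding site, and no match says only that the letters are not in this window. Capitals mark the match, which reads TGATGNAA or, where it lies on the other strand, its reverse complement. The promoters are those of Asns (GRCm38.p6 chr6:7693160-7693459, minus strand, match starting at -23 from the start site), Chac1 (chr2:119350992-119351291, plus strand, -193), Trib3 (chr2:152344011-152344310, minus strand, 14), Atf3 (chr1:191183284-191183583, minus strand, -110) and Slc7a11 (chr3:50443564-50443863, minus strand, with 2 matches, the first at -66).
Asns: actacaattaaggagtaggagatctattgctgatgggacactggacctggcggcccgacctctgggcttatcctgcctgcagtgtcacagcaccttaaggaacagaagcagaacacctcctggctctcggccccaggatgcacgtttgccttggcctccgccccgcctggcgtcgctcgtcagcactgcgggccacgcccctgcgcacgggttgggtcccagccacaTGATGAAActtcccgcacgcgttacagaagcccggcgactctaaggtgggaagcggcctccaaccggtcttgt
Chac1: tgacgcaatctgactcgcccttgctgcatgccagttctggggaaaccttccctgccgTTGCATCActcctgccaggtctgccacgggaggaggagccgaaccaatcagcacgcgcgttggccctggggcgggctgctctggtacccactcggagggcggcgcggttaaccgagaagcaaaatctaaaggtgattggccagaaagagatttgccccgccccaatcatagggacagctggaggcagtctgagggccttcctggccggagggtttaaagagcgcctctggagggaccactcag
Trib3: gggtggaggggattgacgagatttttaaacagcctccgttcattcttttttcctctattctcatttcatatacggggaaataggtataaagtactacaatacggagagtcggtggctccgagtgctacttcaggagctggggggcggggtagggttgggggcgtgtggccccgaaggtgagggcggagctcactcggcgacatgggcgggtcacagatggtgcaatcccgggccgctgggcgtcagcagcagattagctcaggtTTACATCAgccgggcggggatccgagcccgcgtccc
Atf3: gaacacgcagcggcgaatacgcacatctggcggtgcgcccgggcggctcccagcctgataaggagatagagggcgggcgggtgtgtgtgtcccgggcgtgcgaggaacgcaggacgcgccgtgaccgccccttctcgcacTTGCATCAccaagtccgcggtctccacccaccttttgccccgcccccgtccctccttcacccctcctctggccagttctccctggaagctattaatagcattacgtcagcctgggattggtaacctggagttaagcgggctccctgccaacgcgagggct
Slc7a11: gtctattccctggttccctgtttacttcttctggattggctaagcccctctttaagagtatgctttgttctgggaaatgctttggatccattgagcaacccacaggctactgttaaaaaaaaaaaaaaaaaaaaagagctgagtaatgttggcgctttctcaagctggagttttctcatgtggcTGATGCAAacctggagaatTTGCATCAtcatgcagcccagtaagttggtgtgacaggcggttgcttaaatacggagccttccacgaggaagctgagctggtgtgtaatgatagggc

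Hypoxia targets fell and glycolysis was mixed. Of 17 hypoxia response genes 14 fell and none rose (median -0.84, none feeder-tracking, 14 lower at equal feeder level). The angiogenic factor Vegfa was at 50.8, 62.7 and 63.1 CPM at day 0 and 10.99, 10.96 and 8.81 CPM at day 2. The collagen prolyl hydroxylase P4ha1 was at 126, 111 and 121 CPM at day 0 and 22.1, 32.3 and 18.3 CPM at day 2. Ndrg1 and Epas1, which encodes HIF-2 alpha, changed by -2.35 ± 0.25 and -2.54 ± 0.18. In glycolysis 8 of 21 genes fell and 6 rose. Glucose transporters went in opposite directions. Slc2a3 was at 811, 989 and 1018 CPM at day 0 and 269, 263 and 234 CPM at day 2, and Slc2a1 was at 169, 168 and 189.7 CPM at day 0 and 412, 371 and 393 CPM at day 2. The platelet type phosphofructokinase Pfkp fell (326, 320.0 and 345 CPM at day 0 and 60.3, 56.9 and 70.5 CPM at day 2) and the muscle type Pfkm rose (39.2, 42.1 and 38.9 CPM at day 0 and 84.7, 85.7 and 88.1 CPM at day 2). Hexokinases Hk1 (-1.28) and Hk2 (-1.18) fell, Ldha rose by 0.27, a call lost without day 0 replicate 3, and Pkm (-0.07) and Eno1 (0.03) did not pass. Among 21 glycolysis genes 15 were lower and 1 higher at equal feeder level. Slopes below 0 passed for 9 of these 21 genes and 6 of the 17 hypoxia genes. Median slopes were -0.258 for glycolysis and -0.269 for hypoxia. A slope below 0 by itself lowers the reading at equal feeder level, so the lower counts there are no separate evidence of a fall. Counts of Gapdh are uncertain because of its many copies.

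**Figure D4:**
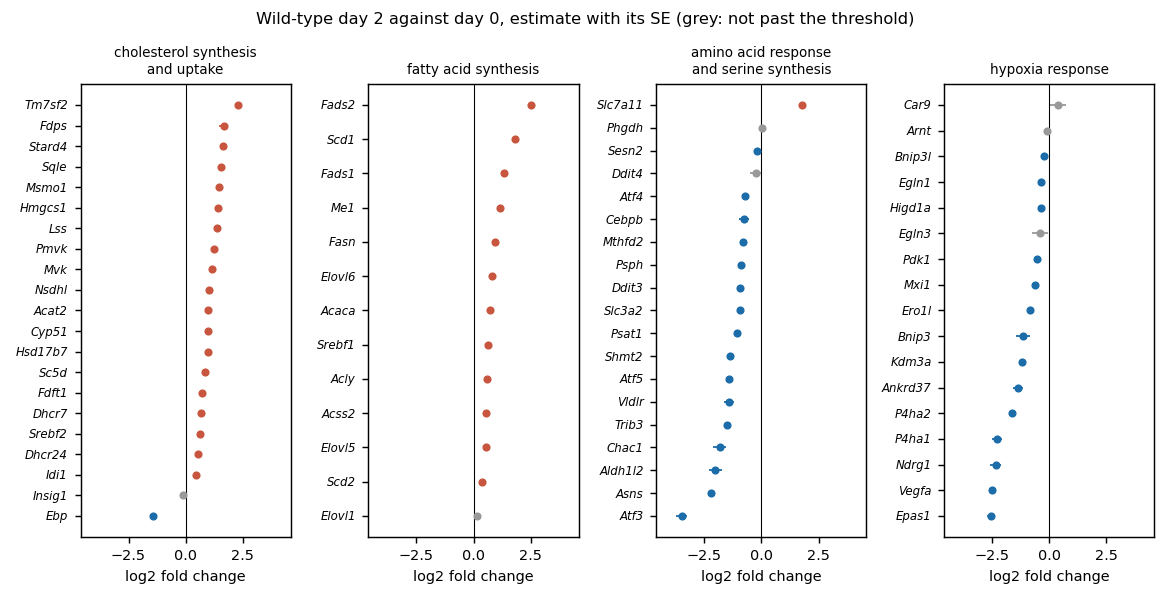
Log2 fold change of wild-type day 2 against day 0 with its SE (x axis) for 21 tested genes of cholesterol synthesis and uptake and each tested gene of fatty acid synthesis, the amino acid response and the hypoxia response, with genes not past the threshold in grey. Both panels on lipid synthesis lie to the right of 0 apart from Insig1 and Ebp, and the other panels to the left of 0 apart from Slc7a11 and, in grey, Phgdh and Car9.

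Antioxidant, metal and stress genes changed one by one. The selenoenzyme Gpx4, which stops lipid peroxidation, was at 210.1, 172 and 168 CPM at day 0 and 49.8, 53.8 and 49.5 CPM at day 2, while Txnrd1 (336, 372 and 349.6 CPM at day 0 and 746, 767 and 750.5 CPM at day 2), Gclc (0.93) and Gclm (0.82), which serve thioredoxin and glutathione, rose. Of 15 NRF2 genes 7 rose and 3 fell. Haem oxygenase Hmox1 fell (185 to 60.3 CPM) and the iron exporter Slc40a1 rose (6.86 to 22.3 CPM), in a list of 9 iron genes with 4 higher and 2 lower. Metallothioneins Mt1 and Mt2 fell from 84.1 to 30.8 CPM and from 31.4 to 5.51 CPM, the zinc exporter Slc30a1 fell (-2.25) and the importer Slc39a10 rose (1.19). The small heat shock protein Hspb1 was at 259, 209 and 197 CPM at day 0 and 18.3, 26.8 and 25.9 CPM at day 2, in a list where 5 of 13 fell and 2 rose, all others by less than 2-fold (3 fell and 3 rose without day 2 replicate 1). The unfolded protein response had 7 of 19 higher (4 without day 0 replicate 1 and with DESeq2) and 7 lower, and Hspa5 (-0.04) did not pass.

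Lysosomal genes fell in 18 of 27 cases and rose in 6. The factors Tfeb and Mitf, which drive lysosomal genes, both fell. Tfeb was at 43.6, 49.9 and 49.1 CPM at day 0 and 2.69, 2.63 and 3.73 CPM at day 2 (slope 0.06). Mitf was at 19.11, 18.1 and 21.9 CPM at day 0 and 2.11, 1.90 and 1.61 CPM at day 2 (slope 0.01). Cathepsins Ctsb (-1.48) and Ctsd (-1.10) fell with slopes of 0.67 and 0.49 that passed, and at equal feeder level 9 of 27 were higher and 3 lower. The GTPase Rragd, which ties lysosomes to mTORC1, rose from 89.9, 86.7 and 81.2 CPM to 315, 340.3 and 356 CPM, and the folliculin complex genes Flcn (0.51) and Fnip1 (0.32) rose less.

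Growth genes moved by small steps. Of 25 genes of the MYC family and ribosome formation 16 fell and 1 rose, and only Myc among these 25 changed 2-fold. Myc was at 45.1, 48.7 and 58.95 CPM at day 0 and 11.3, 11.01 and 8.96 CPM at day 2. Mycn, the family member of the epiblast, was at 301, 315 and 309.6 CPM at day 0 and 200.3, 191 and 206 CPM at day 2. Mycl rose (0.79). Of 76 cytosolic ribosomal protein genes 32 fell and 2 rose (median -0.13), against 31.8% lower and 32% higher of all genes, and none changed 2-fold. Without single libraries 16 to 37 fell: 19 without day 0 replicate 1, 16 without day 2 replicate 1 and 19 without day 2 replicate 3. Of 80 nuclear genes of the respiratory chain 49 fell and 4 rose, or 1 with no filter on low counts (median -0.25), again none by 2-fold, for example complex I subunit Ndufb10 (-0.69) and complex III subunit Uqcr10 (-0.68). All 37 mitochondrially encoded entries were 0 in the table and give no value.

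Among cell cycle genes the D cyclins moved most. Of 28 proliferation genes 12 fell and 8 rose, and 3 changed 2-fold: Ccnd1, Ccnd2 and Ccnd3. Cyclin D3 was at 159.9, 158 and 167 CPM at day 0 and 53.3, 56.6 and 49.3 CPM at day 2 (slope -0.04), and Ccnd2, at 118, 168 and 146 CPM at day 0 and 9.88, 8.27 and 5.65 CPM at day 2, had a slope of 0.84 ± 0.07. Mki67 rose by 0.32, and Mcm2 (0.01) and Cdk1 (-0.04) did not pass. Of 10 inhibitors 7 fell, among them Cdkn1a (134 to 62.2 CPM), Cdkn2a (-1.96) and Cdkn2b (-2.09), which were feeder-tracking, and p27 (Cdkn1b) rose from 31.8, 33.7 and 36.7 CPM to 72.2, 62.9 and 73.3 CPM. Of 20 p53 targets 10 fell and 3 rose, and Trp53 itself changed by -0.49 ± 0.06.

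Epithelial genes were higher at day 2. Of 20 tested, 15 rose, 11 of them at least 2-fold (12.6% of all genes), none fell and 5 did not pass (median 1.10). E-cadherin (Cdh1) was at 494, 534 and 552 CPM at day 0 and 1154, 1119 and 1168 CPM at day 2 (log2 fold change 1.12 ± 0.06). Epcam was at 158, 132 and 126 CPM at day 0 and 328, 342 and 325 CPM at day 2. Tight junction genes rose too: the claudin Cldn6 was at 45.6, 43.2 and 33.6 CPM at day 0 and 211, 223 and 227 CPM at day 2, and Cldn7 (2.82 ± 0.15), Cldn3 (3.03), the polarity gene Crb3 (2.59) and occludin (Ocln, 2.35) followed. The small GTPase Rab25, of apical transport, rose from 4.62, 4.19 and 3.32 CPM to 51.1, 57.3 and 60.8 CPM. The splicing regulator Esrp1 (1.32) rose. None was feeder-tracking, and 4 had slopes below 0 that passed. At equal feeder level 2 were higher, so most of these calls did not hold there. The median slope of the list was -0.284, and slopes below 0 lower that reading. The summed mean level of all feeder-tracking genes went from 39657 to 26415 CPM. Whether stem cells or the loss of feeder RNA from the total raised the epithelial genes was not tested. Keratin 18 (Krt18, 28.2 to 72.4 CPM) rose and keratin 8 (Krt8) did not pass, at 29.1, 83.04 and 73.9 CPM at day 0 and 79.4, 87.2 and 61.3 CPM at day 2, where the low day 0 library was that of replicate 1.

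Matrix receptors and the basement membrane were lower at day 2, a balance that turned at equal feeder level. In that reading genes that feeders and stem cells both express can read too high at day 2. Of 18 integrin and adhesion genes 16 fell and 2 rose (median -0.96), 9 were feeder-tracking, and at equal feeder level 1 was lower and 4 higher. The fibronectin receptor subunit Itga5 changed by -1.73 ± 0.15 with a slope of 0.48, and Itgb1, the common beta chain, was at 552, 749 and 689 CPM at day 0 and 375, 389 and 378 CPM at day 2 with a slope of 0.36. The adhesion molecule Icam1 was at 69.7, 63.3 and 65.9 CPM at day 0 and 6.72, 7.59 and 8.96 CPM at day 2 (slope -0.12 ± 0.07). The laminin receptor Itga6 was at 145, 138 and 139.7 CPM at day 0 and 269, 284 and 286 CPM at day 2 and rose, as did the focal adhesion kinase Ptk2 (0.48). Of 20 basement membrane genes 16 fell and 2 rose, 8 were feeder-tracking, and at equal feeder level 3 were lower and 5 higher. The laminin chain Lamc1 was at 349, 432 and 453 CPM at day 0 and 179.8, 149.7 and 175 CPM at day 2 (slope 0.11 ± 0.08) and Nid2 changed by -1.38 ± 0.13 (slope -0.08), while Lama4 (-3.37) had a slope of 1.01 and Nid1 (-3.50) one of 0.35.

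Interferon genes, guidance cues and cilia genes closed the survey of lists. Of 23 interferon response genes 15 fell and 6 rose. Ifitm3 was at 145, 124 and 122 CPM at day 0 and 24.1, 32.9 and 43.99 CPM at day 2, and Ifitm1 changed by -1.71 ± 0.17, whereas Bst2 rose to 104, 119.9 and 119 CPM from 54.4, 45.3 and 37.2 CPM and the class I genes H2-K1 (0.80) and H2-D1 (1.10) rose. Of 31 axon guidance genes 14 fell and 11 rose, and 12 were feeder-tracking. Netrin 1 (Ntn1) was at 133, 193 and 214 CPM at day 0 and 12.5, 12.2 and 8.96 CPM at day 2, and the ephrin receptor Epha2 changed by -2.95 ± 0.15. The semaphorin Sema6a rose from 14.1, 18.9 and 10.6 CPM to 166, 127 and 148 CPM. Of 30 cilia genes 11 rose and 5 fell (3 without day 0 replicate 2 or 3 or day 2 replicate 2), and of the factors that drive cilia genes Foxj1 rose from 3.02, 2.61 and 2.98 CPM to 22.7, 18.2 and 10.7 CPM and Rfx3 from 12.6, 14.1 and 12.5 CPM to 49.9, 40.2 and 43.2 CPM, while Rfx2 fell (-2.01). Of 14 tested long non-coding RNAs of stem cells 9 fell and 2 rose, and Lncenc1, a naive state transcript, was at 449.6, 431 and 471 CPM at day 0 and 33.8, 53.6 and 67.98 CPM at day 2. The balance at equal feeder level also turned for axon guidance (3 lower, 7 higher), p53 targets (1 lower, 3 higher) and smooth muscle genes (1 lower, 5 higher). For these lists too, genes that feeders and stem cells both express can read too high there. Interferon genes had 3 lower and 2 higher there, FGF and ERK genes 5 and 4, retinoic acid genes 3 and 3, imprinted genes 3 and 7, Polycomb genes 7 and 4, Wnt targets 1 and 1, and cilia genes 1 and 3. There were 2 neuroectoderm genes higher, and 7 proliferation, 4 ribosomal protein and 10 respiratory chain genes lower. In the serpin A3 cluster 4 of 5 tested genes fell.

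**Figure D5:**
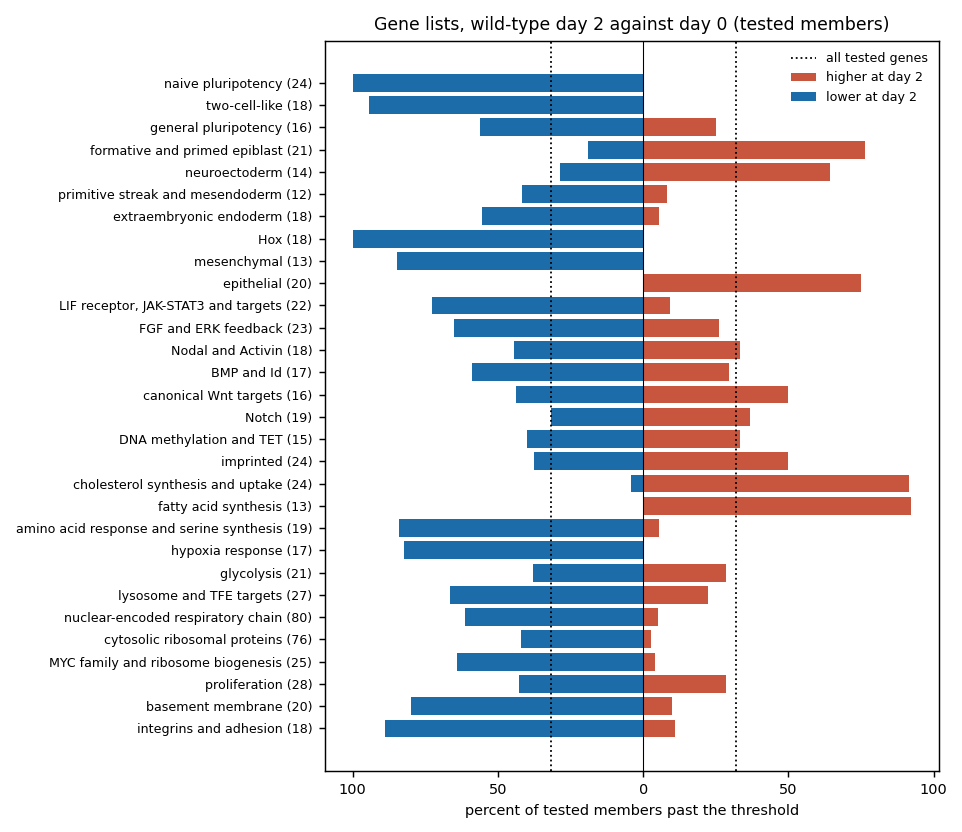
Percent of the tested members of 30 gene lists (number in brackets) that were past the threshold and lower (blue, left) or higher (red, right) at day 2 in the wild-type, with dotted lines at the shares over all 17144 genes, 31.8% and 32%. Naive pluripotency, 2-cell-like and Hox genes lay at or close to the full length on the lower side, and cholesterol and fatty acid synthesis on the higher side.

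The knock-out line went through the same 2 days with its own 6 libraries, which gave a test of where the wild-type step differed. The difference of the day 0 to 2 steps, knock-out minus wild-type, passed for 1259 genes (7.34%), and for 731 without wild-type day 2 replicate 1. In the knock-out 29.5% of genes were higher at day 2 and 30.6% lower. Of the naive genes 17 of 24 differed in step, 14 without that library, and all 17 differences were above 0, the fall being deeper in the wild-type. Esrrb changed by -5.68 in the wild-type and -3.40 in the knock-out on the log2 scale (difference 2.28 ± 0.28, adjusted p = 8.63e-05), from 697 to 66.02 CPM in the knock-out. Jam2 (2.14 ± 0.22), Klf2 (1.78 ± 0.20), Nr5a2 (1.85 ± 0.26) and Zfp42 (1.62 ± 0.21) differed likewise, whereas Klf4 (-0.01 ± 0.21, adjusted p = 0.994) and Tbx3 (0.44 ± 0.43) did not pass. The median of the list was -3.04 in the knock-out and -4.51 in the wild-type.

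Formative genes differed in step for 10 of 21. Fgf5 had the highest difference among the genes named by size: from 1.25 CPM it reached 127 CPM in knock-out cells, against 21.5 to 138 CPM in wild-type cells (difference 3.98 ± 0.16, adjusted p = 2.38e-14). Pim2 (1.59 ± 0.31), Sox3 (1.58 ± 0.33) and Dnmt3b (0.80 ± 0.16) had differences above 0 that passed, and Otx2 (-0.18) and Pou3f1 (1.04) did not pass. Pim2 went from 26.9 to 832 CPM in the knock-out and from 108 to 1111 CPM in the wild-type. Dnmt3b went from 299 to 3588 CPM in the knock-out and from 528 to 3635 CPM in the wild-type. For Fgf5, Pim2 and Dnmt3b the knock-out mean was thus below the wild-type mean at day 0 and not above it at day 2. Of the hypoxia list 3 of 17 differed. The Wnt feedback gene Axin2 changed by -1.31 in the wild-type and 0.09 in the knock-out (difference 1.40 ± 0.26, adjusted p = 0.00218), and Id1 fell further in the knock-out (-3.41, difference -2.11 ± 0.47).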

How the data were processed

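RNA-seq counts per gene of 24 libraries were used, of which 6 are the wild-type libraries of days 0 and 2. The authors deposited raw counts for 55401 gene entries. Per the submitters' processing notes, reads were handled with Trimmomatic and HISAT2 on GRCm38.p6, and the sources name no counting tool, strand setting or treatment of reads with several matches. Per the labels' protocols, RNA was total RNA and libraries were poly(A)-selected. Identifiers were matched to GENCODE M21 (55141 of 55401), and 2090 entries had no gene name and were kept. All per-sample columns were mapped to samples by name.

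From the counts, genes were filtered by expression per group, scaled with TMM and fitted in 1 edgeR quasi-likelihood model (edgeR 4.0.16, limma 3.58.1, R 4.3.3) over all 8 groups of 3 libraries, and p-values were adjusted by the Benjamini-Hochberg method over all 17144 tested genes. Feeder slopes came from a like fit over the 6 libraries of day 0 with genotype and the log2 feeder sum as terms. Intervals for ratios of counts and floors of 3 counts cover counting error only. The totals of 18531390 to 22892654 counts per library set the precision. The code was tested on simulated counts with known changes.

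Genes were named by this rule: the 10 highest and 10 lowest log2 fold changes past the threshold with no overlap of libraries, 10 CPM or more in the higher group and a symbol that is no clone name; the 10 lowest of these with a slope below 0.25; the 5 largest gains and losses in CPM; the 5 highest slopes at a mean of at least 50 CPM outside the score; the 5 highest and lowest differences of steps; and members of 58 gene lists, those with the lowest adjusted p and others needed to describe a role. A few genes that the rule or the lists hold are not reported here, and list counts include them. Members and lists were chosen with earlier results of these data known. The class with a slope bound below 0.5, the feeder sum without Mmp2, the motif searches and the promoters shown were chosen after these values were seen. Replicate numbers were not used to pair the samples in the main fit. The correlations of same-numbered deviations of days 0 and 2 over 10829 genes were -0.301, -0.217 and 0.11. Those of different numbers ranged from -0.222 to 0.312. Deviations at day 0 also hold the unequal feeder load, so these values cannot show whether the samples were paired. Alternatives were DESeq2 size factors, the DESeq2 1.42.0 Wald test, all genes with a count, a fit of the compared groups alone, a replicate block, TMM without feeder genes, equal feeder level, other feeder sums, no genotype term, and each library left out in turn.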

Additional observations from a re-analysis of the deposited data

Results flagged for a closer look

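The step from day 0 to day 2 differed between the lines by edgeR's test of the difference for 10 genes named by size, chosen among those where, in all possible pairs of a day 2 and a day 0 library of a line, every knock-out difference lay beyond every wild-type one. Libraries were not matched for this. Knock-out minus wild-type, it was 3.98 for Fgf5, 2.88 for the actin-binding gene Pdlim3, 2.68 and 2.67 for the guanylate-binding genes Gbp2 and Gbp2b, and 2.65 for Krt8 (adjusted p = 2.97e-05 for Pdlim3, 0.0462 for Gbp2, 0.0368 for Gbp2b and 0.000538 for Krt8). It was -5.90 for the protease inhibitor Spink1, -2.71 for the protease inhibitor A2m, -2.51 for the chemokine Cxcl5, -2.43 for the matrix gene Smoc2 and -2.11 for the elastin-associated gene Emilin2 (adjusted p = 0.00589, 0.0159, 0.0395, 0.0141 and 0.00185). Spink1 went from 8.94 to 0.0166 CPM in the knock-out and from 10.98 to 1.66 CPM in the wild-type. The size of its difference (SE 1.20) thus rests on a knock-out day 2 level near 0 and is uncertain. Gbp2, Gbp2b, Cxcl5, Smoc2 and Emilin2 had feeder slopes of 1.03, 1.11, 1.18, 1.05 and 0.88 that passed. Those of Gbp2 and Gbp2b turned below 0 without the genotype term. Feeder sums of day 0 libraries ran from 1617 to 2799 CPM (wild-type, mean 2278) and from 1566 to 4292 CPM (knock-out, mean 2950). Knock-out cells at day 0 had a mean of 1.66 CPM for Gbp2, against 21.4 for wild-type cells. For Gbp2b these means were 0.984 and 19.9 CPM. Both genes were thus lower at day 0 where the mean feeder sum was higher. For Cxcl5, Smoc2 and Emilin2 the knock-out mean at day 0 was above that of the wild-type. The part of feeder RNA in these differences of steps was not tested. Leaving out single libraries ended the call for Cxcl5, Gbp2, Gbp2b, Smoc2 and A2m in at least 1 case. Gbp2 and Gbp2b are close copies of each other, and their counts may be shared between them. Krt8 was low in the wild-type day 0 replicate 1. Its mean went from 7.16 to 55.2 CPM in the knock-out and from 62.0 to 76.0 CPM in the wild-type. Pdlim3 went from 0.641 to 11.5 CPM in the knock-out and from 3.99 to 9.83 CPM in the wild-type.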

How the results depend on the processing

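The 10936 genes past the threshold were 10335 to 10568 when each wild-type library was left out in turn, 10962 with the replicate number as a block, and 3117 at equal feeder level. The block changed no count over all genes by over 1.5 times, with 1277 differences of steps against 1259. Without single libraries the knock-out count ranged from 9607 to 10175, day 3 against day 2 from 6021 to 6668, the difference of steps from 731 (without wild-type day 2 replicate 1) to 1645, the count at equal feeder level from 985 to 3168 (1462 without knock-out day 0 replicate 1) and the feeder-tracking genes from 217 to 1610 (399 without knock-out day 0 replicate 1), and 364 passed without the genotype term, where the slopes of Gbp2 (-0.45) and Gbp2b (-0.41) turned below 0; the cause was not tested. At equal feeder level 39 named genes changed direction, as log2 fold changes: Acvr1b (-0.40), Aebp1 (0.95), Ccnd1 (0.59), Cd44 (0.36), Cdkn1a (1.06), Cdkn2a (0.13), Cdkn2b (1.01), Csf1 (0.72), Ctgf (0.83), Ctsb (1.06), Ctsd (0.76), Cyr61 (1.67), Eef1a1 (-0.28), Eno1 (-0.85), Fdps (-0.10), Fn1 (0.14), H19 (1.33), Irx3 (2.49), Itga5 (0.10), Itgb1 (0.57), Jak1 (0.43), Jak2 (1.5), Lama4 (0.47), Ldha (-0.78), Lif (0.98), Mki67 (-0.26), Mycl (-0.57), Nkd1 (-1.24), Phgdh (-0.90), Ptpn6 (-0.16), Setd3 (0.12), Slc2a1 (-0.86), Spry2 (0.07), Tcf7 (-0.08), Tgfb3 (0.05), Timp2 (1.38), Tpm2 (2.54), Zeb2 (2.81) and Zic1 (0.27). Of 309 genes named for their change from day 0 to 2, 98 kept their direction there without passing and 166 kept direction and call. Genes that feeders and stem cells both express can read too high at day 2 in that reading. Slopes below 0 lower it. Depth, 3 libraries a group and 6 day 0 libraries for the slopes limit small changes. A slope that misses the threshold does not show a gene free of feeder RNA, and one that passes does not show feeders as its source.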
